A study of Mus musculus with 28 samples.

Results

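The mRNAs of 10 RGS genes (Rgs14, Rgs10, Rgs12, Rgs2, Rgs4, Rgs5, Rgs8, Rgs16, Rgs7 and Rgs17) were described across the dendritic and cell body layers of 4 hippocampal subregions of the mouse. They were taken by gene symbol from a deposited gene table of 49341 genes, and all 10 were among the 24911 genes with values high enough to test. RGS proteins (regulators of G protein signalling) speed up the hydrolysis of GTP by G protein alpha subunits and so shorten the signal that a receptor sends through Gi/o or Gq. Families of RGS proteins differ in what surrounds the RGS domain: the small R4 proteins hold little else, R7 proteins work in complexes with the G beta 5 subunit, the larger R12 proteins RGS12 and RGS14 carry Ras/Rap-binding and GoLoco regions, and RZ proteins act on Gz and Gi/o. RGS14 is abundant in CA2 pyramidal neurons of the mouse, where it is known to restrain synaptic potentiation.

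Bulk RNA sequencing was run on tissue taken by infrared laser capture from 8 μm fresh-frozen sections of 3 male Amigo2-EGFP mice on a C57BL/6J background, aged 6 to 8 weeks and from separate litters. The mice are numbered 492, 496 and 502 by the submitters, and values are given in that order. The subregions were the dentate gyrus (DG) and the CA1, CA2 and CA3 fields, and from each the dendritic and the cell body layer of every mouse were captured, which gave 8 groups of 3 libraries. All groups carry the same transgene, in which the Amigo2 promoter, active in CA2 neurons, drives EGFP, and none received a treatment. Each captured layer holds every cell and process in that strip of tissue, so a bulk value cannot tell fewer cells of a type from less RNA per cell. Libraries were made from 1 ng of RNA for dendritic layers and 5 ng for cell body layers, so that input and layer cannot be told apart. The 8 libraries of a mouse were processed together and shared a sequencing lane, so that each mouse is also a lane. The CA2 and DG dendritic libraries of mice 492 and 502 were remade, and may be an exception.

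The gene values used below are log2 of the estimated reads of a gene after median normalization by the authors, and every difference is a difference of these log2 values. Normalized values summed to 36933392 to 98715227 per dendritic library and 29222878 to 55477249 per cell body library, and 15947 to 20480 genes in dendritic libraries and 18439 to 20236 in cell body libraries reached a value of 10. Mitochondrially encoded RNA took 29.5% to 46.9% of the dendritic values and 4.21% to 9.08% of the cell body values. Of 10 CA2 marker genes, a list without Rgs14, 9 were higher in CA2 than in the other cell body layers, against 7.34% of all genes. In dendritic layers 4 of them were higher in CA2 than in the others, against 0.446% of all genes. Over the mean of the 4 subregions, markers of other cells were called higher in dendritic layers, against 19.8% of all genes: 9 of 9 for astrocytes, 9 of 9 for oligodendrocytes, 5 of 5 for their precursors, 10 of 10 for microglia, 9 of 9 for endothelium and 10 of 10 for mural cells, and 8 of 10 for interneurons. Within single subregions this did not always hold, as the precursor gene Vcan was not called within CA2 (0.68, adjusted p 0.311). A difference was called at a Benjamini-Hochberg adjusted p below 0.05 in limma over all 24911 genes, with the mouse as a block.

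Several RGS genes lie in pairs on mouse chromosome 1 (GRCm38), and their start regions are shown because neighbours there differed in pattern. Rgs4 (chr1:169741477-169747642, minus strand) and Rgs5 (chr1:169655501-169695813, plus strand) are 45.7 kb apart with 0 protein-coding genes between them, and Rgs8 (chr1:153653025-153700323) and Rgs16 (chr1:153740349-153745468), both on the plus strand, are 40.0 kb apart with 0 between. The RefSeq sequences of 300 bases around the starts of Rgs4 (chr1:169747593-169747892, minus strand) and Rgs5 (chr1:169655251-169655550, plus strand) are printed with motif matches in capitals. The same is printed for both Rgs12 starts in that table (chr5:34949198-34949497 and chr5:34998828-34999127, plus strand), since Rgs12 transcripts that start in these windows are described further on.
Rgs4: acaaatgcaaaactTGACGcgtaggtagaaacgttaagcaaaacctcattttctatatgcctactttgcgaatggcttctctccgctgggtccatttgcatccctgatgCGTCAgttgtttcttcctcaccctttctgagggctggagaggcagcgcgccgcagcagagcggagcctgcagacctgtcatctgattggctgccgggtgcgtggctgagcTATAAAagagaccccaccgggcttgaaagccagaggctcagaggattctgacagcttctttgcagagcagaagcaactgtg
Rgs5: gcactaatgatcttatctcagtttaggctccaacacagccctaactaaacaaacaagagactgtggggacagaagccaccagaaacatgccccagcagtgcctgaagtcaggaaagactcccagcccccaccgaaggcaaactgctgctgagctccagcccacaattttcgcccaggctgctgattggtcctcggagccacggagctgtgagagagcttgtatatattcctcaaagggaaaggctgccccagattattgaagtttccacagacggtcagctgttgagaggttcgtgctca
Rgs12, first start: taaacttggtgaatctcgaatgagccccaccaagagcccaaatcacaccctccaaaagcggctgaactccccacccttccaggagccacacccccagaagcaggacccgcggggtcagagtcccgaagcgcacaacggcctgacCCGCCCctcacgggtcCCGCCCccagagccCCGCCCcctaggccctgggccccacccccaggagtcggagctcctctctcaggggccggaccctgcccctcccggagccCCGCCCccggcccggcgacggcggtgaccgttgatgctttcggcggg
Rgs12, second start: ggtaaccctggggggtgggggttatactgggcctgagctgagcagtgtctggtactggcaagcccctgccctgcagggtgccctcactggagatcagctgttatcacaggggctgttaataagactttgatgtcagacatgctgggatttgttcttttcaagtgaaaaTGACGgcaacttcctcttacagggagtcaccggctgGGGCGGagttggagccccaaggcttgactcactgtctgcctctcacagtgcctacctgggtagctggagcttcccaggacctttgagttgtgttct
The capitals mark a TATA box (TATAAA), a short CRE (TGACG) or a GC box (GGGCGG), read on either strand. The TATA box lies at position -31 relative to the Rgs4 start and is found in 13.62% of 32851 promoters of the same length. The short CRE lies at -236 and -141 of Rgs4 and at -82 of the second Rgs12 start, and is found in 20.81% of promoters. The GC box lies at -106, -90, -76 and 3 of the first Rgs12 start and at -46 of the second, and is found in 35.66% of promoters. The Rgs5 window holds none of these letter runs. Also searched, with no match in the 4 windows, were the full CRE (TGACGTCA, found in 1.79% of promoters, which overlaps the short one), the E-box (CACGTG, found in 7.15%), the EGR1 motif (GCGTGGGCG, found in 0.612%) and the MEF2 box (found in 0.164%). The first Rgs12 window has 70.33% GC and 23 CpG sites, against 55.33% and 3 in the second and a median of 52.67% and 7 over all promoters. RefSeq entries of this kind were found for 9 of the 10 genes, all but Rgs14.

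**Figure D1:**
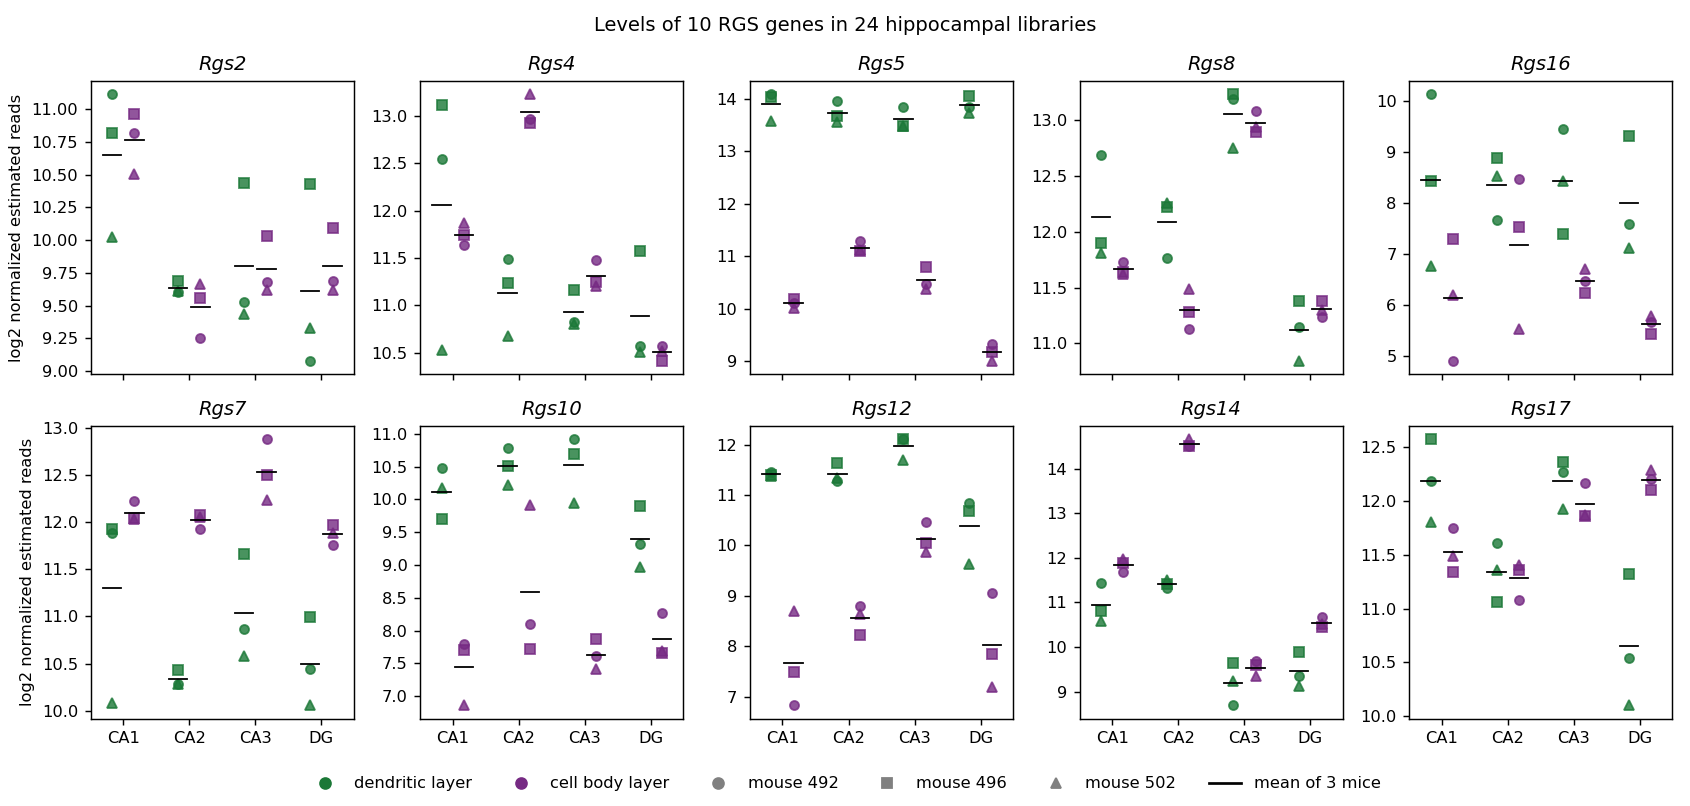
Levels of the 10 RGS genes in 24 libraries, as log2 of the median-normalized estimated reads (y axis), for the dendritic layer (green, left) and the cell body layer (purple, right) of CA1, CA2, CA3 and DG; each symbol is 1 mouse and the bar is the mean of 3. Rgs14 stands highest in CA2 cell bodies at 14.50 to 14.67, Rgs5 stands at 13.49 to 14.09 in every dendritic layer, and Rgs16 scatters widely between mice.

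Rgs14 (chr13:55369732-55384687, plus strand) had its highest mean level in CA2 in both layers, though CA2 over CA1 was called in cell bodies only. It had 14.50, 14.52 and 14.67 in CA2 cell bodies, against 11.69, 11.89 and 11.97 in CA1, 9.68, 9.59 and 9.34 in CA3 and 10.67, 10.44 and 10.51 in DG cell bodies. Every CA2 library lay above every library of the other cell body layers, and CA1, DG and CA3 followed in that order without overlap. CA2 exceeded the mean of the other cell body layers by 3.92 ± 0.206 (SE, adjusted p 2.8e-12), a 15.1-fold difference, seen in 3 of 3 mice at 3.82 to 4.06. Each step down the order was called: CA2 over CA1 by 2.71 (adjusted p 4.15e-08), CA1 over DG by 1.31 (adjusted p 0.000667) and DG over CA3 by 1.00 (adjusted p 0.00653).

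In the dendritic layers the order was again CA2, CA1, DG and CA3. The steps from CA2 to CA1 and from DG to CA3 were smaller than in cell bodies, while that from CA1 to DG was not. Rgs14 had 11.32, 11.41 and 11.50 in CA2 dendritic layers, against 11.43, 10.81 and 10.59 in CA1, 8.69, 9.65 and 9.24 in CA3 and 9.35, 9.88 and 9.13 in DG. CA2 and CA1 overlapped, since the CA1 library of mouse 492 lay inside the CA2 range, whereas all CA3 and DG libraries lay below both. From the transcript values, per kilobase of transcript, Rgs14 stood at 10.07 to 10.32 in CA2 and 9.17 to 9.67 in CA1, without overlap. That gap per kilobase was not tested. CA2 exceeded the mean of the other dendritic layers by 1.54 ± 0.206 (SE, 95% interval 1.12 to 1.97, adjusted p 6.02e-05), or 2.92-fold, at 1.29 to 1.84 in 3 of 3 mice. CA2 over CA1 was 0.46 (adjusted p 0.272) and DG over CA3 was 0.26 (adjusted p 0.683), both uncalled, while CA1 exceeded DG by 1.49 (adjusted p 0.000231). CA1 itself exceeded the mean of the other dendritic layers by 0.93 ± 0.206 (adjusted p 0.00376), but this was 0.57 (adjusted p 0.165) without mouse 492 and 0.34 to 0.54 (adjusted p 0.0813 to 0.278) under 3 other scalings. Over all genes, 9.82% were called for CA2 against CA1, 12.6% for CA1 against DG and 5.57% for CA3 against DG in dendritic layers, and in cell body layers 7.26% for CA2 against CA1, 10% for CA1 against DG, 14.5% for CA3 against DG and 3.58% for CA2 against CA3. A two-sided exact sign-flip test over 3 mice cannot go below p = 0.25, and gave 0.25 for CA2 in both layers and for the layers within CA2. Without the 4 CA2 and DG dendritic columns of mice 492 and 502, whose libraries were remade, the CA2 dendritic value rested on 1 CA2 library and was 1.37 (adjusted p 0.141).

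Dendritic layers held less Rgs14 than cell body layers in 3 of 4 subregions. The largest gap was in CA2, where the dendritic layers were lower by 8.89-fold (-3.15 ± 0.252, adjusted p 1.25e-09; -3.17 to -3.11 in 3 of 3 mice). In CA1 the difference was -0.90 ± 0.252 (adjusted p 0.00948) and in DG -1.08 ± 0.252 (adjusted p 0.00233), and in CA3 it was -0.35 (adjusted p 0.385), where the layers overlapped. The CA1 call was lost without mouse 496 (adjusted p 0.0829) or 502 (0.182), and the DG call without mouse 502 (0.0773) or the 4 columns of remade libraries (-0.70, adjusted p 0.242). Per kilobase of transcript, Rgs14 ranked first of the 10 genes in CA2 cell bodies at a mean log2 level of 13.37, ahead of Rgs4 at 11.49, and in CA2 dendritic layers its rank was 3 at 10.20. In CA3 dendritic layers its rank was 9 at 7.87 log2 per kilobase.

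The CA2 gap between layers was tested against the other subregions directly. The CA2 difference of Rgs14 was 2.37 ± 0.291 smaller in dendritic than in cell body layers on the log2 scale (adjusted p 1.25e-05 for the difference of -2.37), while the CA3 difference was 1.37 ± 0.291 less negative in dendritic layers (adjusted p 0.0107). The CA3 result was chosen after the values were seen, and its adjusted p was 0.202 without mouse 496 and 0.312 without mouse 502. Across the 12 dendritic libraries Rgs14 followed the summed level of the CA2 marker list with r = 0.83, and across the 12 cell body libraries with r = 0.85, as a description of libraries that share mice and layers. That summed log2 level was 13.62 to 13.97 in CA2 dendritic layers and 16.14 to 16.59 in CA2 cell bodies. In CA1 dendritic layers it was 12.41 to 13.94, with mouse 492 inside the CA2 range. Choroid plexus and ependymal markers stood at 13.24 to 14.93 in CA2 dendritic layers and at most 12.55 in the others, and their part in the CA2 dendritic values was not tested.

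**Figure D2:**
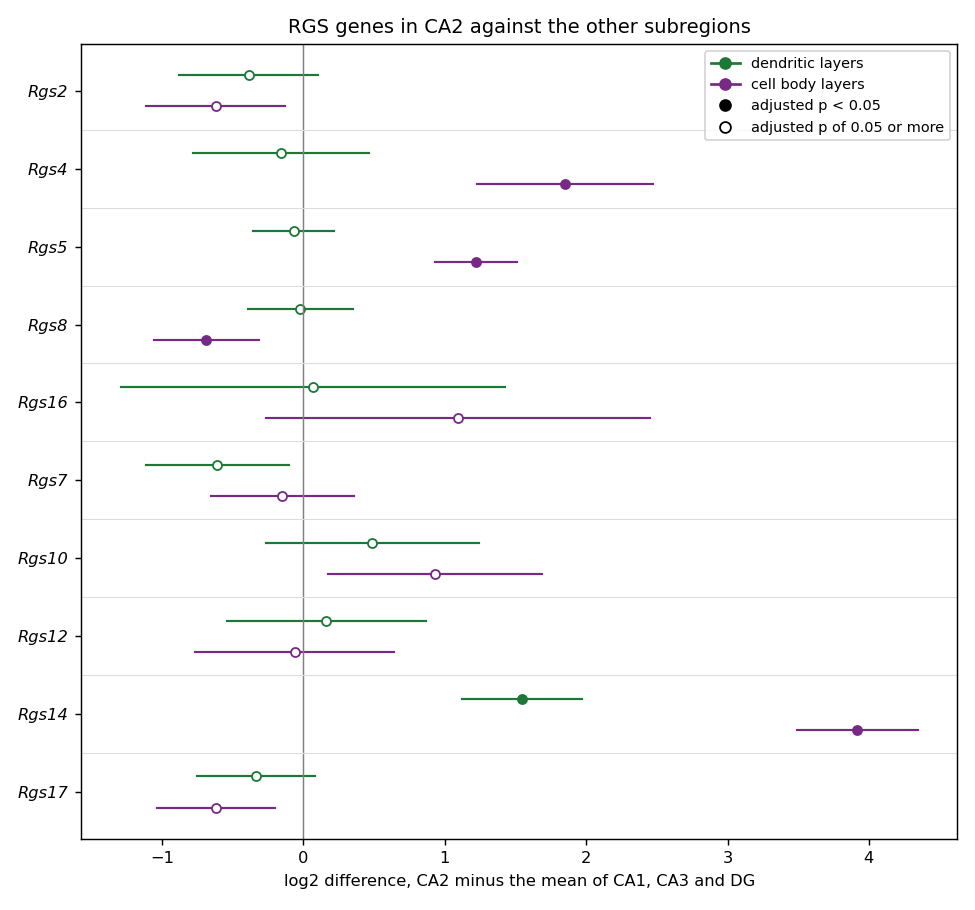
CA2 minus the mean of the other 3 subregions for each RGS gene (x axis, log2 difference), in dendritic and in cell body layers; bars are 95% confidence intervals from limma and filled points have an adjusted p below 0.05. Rgs14 is at 1.54 in dendritic layers and 3.92 in cell body layers, and Rgs4 (1.85) and Rgs5 (1.22) are called higher in CA2 in cell body layers.

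Of the 10 genes, Rgs14 was the 1 called in the comparison of CA2 with the other dendritic layers, where 2.57% of all genes tested were called and 0.446% were called higher. In cell body layers 4 of 10 were called, against 8.97% of all genes: Rgs14, Rgs4 and Rgs5 were higher in CA2, against 7.34% of all genes, and Rgs8 was lower, against 1.63%. Background shares by direction depend on the scaling here: 81.8% of all CA2 cell body calls were higher as deposited, against 54.1% after quantile normalization, 40.1% after scaling to totals and 44.2% after scaling to totals outside the mitochondrial genome. For CA2 dendritic calls those shares were 17.3% as deposited, against 39.8%, 27.0% and 55.4%. In the direct test of the CA2 difference between layers 3 of 10 were called, all more negative in dendritic layers, against 7.17% of all genes called and 6.43% in that direction; 10.2% of those calls were positive as deposited, against 44.9%, 49.2% and 63.9% under these scalings.

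Most genes listed as partners of RGS14 were lower in dendritic layers, as Rgs14 itself was. Of 11 genes whose products bind RGS14 or belong to its complexes, 1 was called higher and 7 lower in dendritic than in cell body layers, against 19.8% and 25.4% of all genes (median -0.61, against -0.20 over all genes). Camk2a, the alpha subunit of the calcium/calmodulin kinase, was higher by 2.53 ± 0.0587 (adjusted p 1.45e-20), while Gnai1, a Gi alpha subunit, was lower by 1.04 ± 0.128 (-1.04, adjusted p 2.41e-07) and Hras, Braf, Rap2a, Ric8a and Ywhag were among the others that were lower. In CA2 cell bodies 3 of 11 were higher than in the other subregions, against 7.34% of all genes, among them Ywhag, a 14-3-3 protein, by 0.54 and Camk2a by 0.46. In CA2 dendritic layers 2 of 11 were lower, among them Camk2a at -0.58, where 2.57% of all genes were called in either direction.

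**Figure D3:**
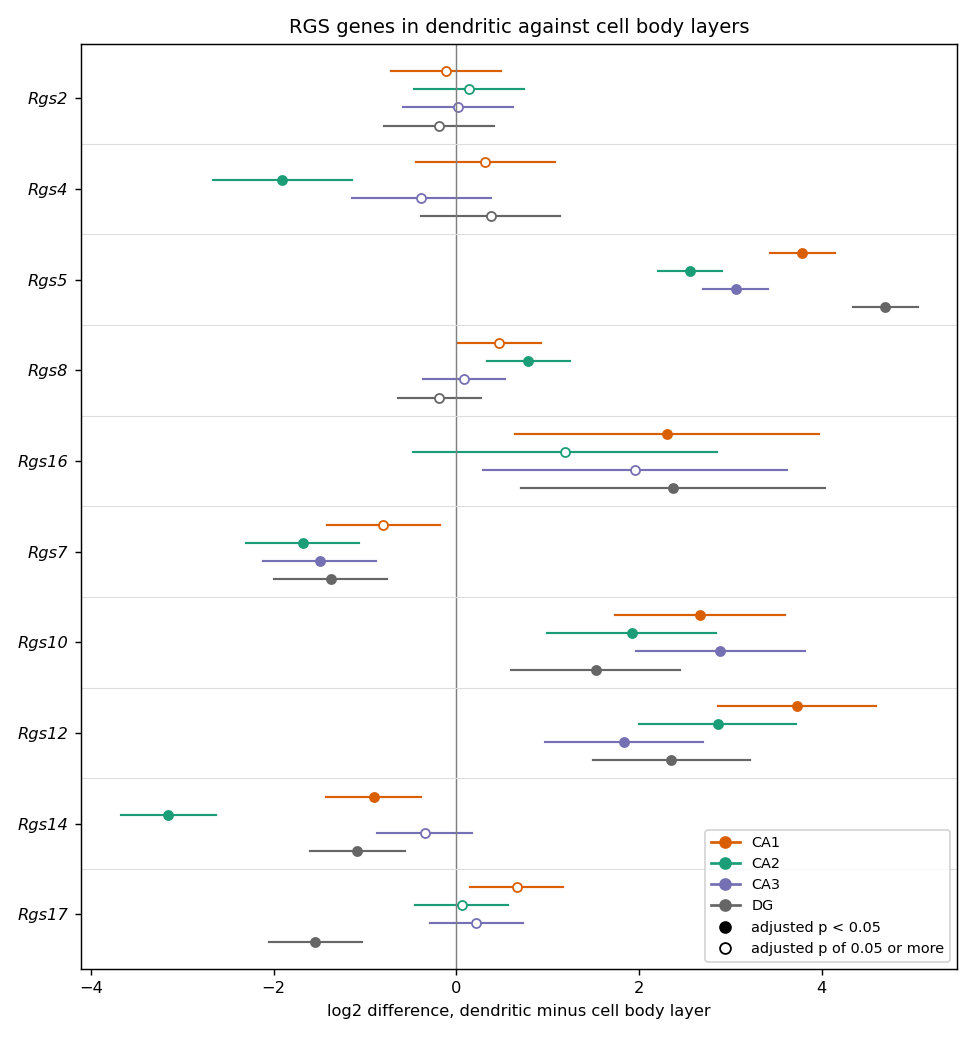
Dendritic minus cell body layer for each RGS gene within CA1, CA2, CA3 and DG (x axis, log2 difference), with 95% confidence intervals from limma and filled points for adjusted p below 0.05. Rgs5, Rgs10 and Rgs12 are called higher in dendritic layers of all 4 subregions, and Rgs14 runs from -0.35 in CA3 to -3.15 in CA2.

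Averaged over the 4 subregions, 7 of the 10 genes differed between layers, against 45.2% of all genes. Rgs5, Rgs12, Rgs10, Rgs16 and Rgs8 were higher in dendritic layers (19.8% of all genes) and Rgs14 and Rgs7 were lower (25.4%). The Rgs8 call depended on the scaling and on single mice, as given below. The median over the 10 was 0.13, against -0.20 over all genes. Within single subregions 5 of 10 were called in CA1 (24.8% of all genes), 7 in CA2 (28%), 4 in CA3 (22.1%) and 7 in DG (22.3%). Of the calls over all genes in the 4-subregion mean, 43.8% were higher as deposited, against 26.3% after scaling to totals, which moved the all-gene median to -0.63.

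Rgs12 and Rgs10, counted in the R12 family, were higher in the dendritic layers of all 4 subregions, without overlap between layers. Rgs12 (chr5:34949445-35039644, plus strand), a large protein that binds Ras and MAP kinase components besides Gi alpha, had 11.45, 11.40 and 11.39 in CA1 dendritic layers, against 6.83, 7.5 and 8.71 in CA1 cell bodies. In CA3 it had 12.11, 12.10 and 11.70 in dendritic layers, against 10.47, 10.05 and 9.88 in cell bodies. The gap between layers was 3.73 ± 0.418 in CA1 (13.3-fold, adjusted p 1.68e-07), 2.86 ± 0.418 in CA2 (adjusted p 9.22e-06), 2.36 ± 0.418 in DG (adjusted p 0.000128) and 1.84 ± 0.418 in CA3 (adjusted p 0.0019, or 0.0601 without mouse 496). Tested directly, the CA1 gap was not called different from the others (1.38 ± 0.482, adjusted p 0.0922), and in mouse 502 the CA1 gap of 2.68 was no wider than the CA2 gap of 2.70. CA3 cell bodies exceeded the other cell body layers by 2.04 ± 0.341 (adjusted p 0.000193), and CA1 cell bodies were lower than the others (-1.23, adjusted p 0.0278), a value that was -0.54 without mouse 492 and had an adjusted p of 0.286 without mouse 496. The DG dendritic layer, at 10.85, 10.68 and 9.62, was lower than the other dendritic layers (-1.21 ± 0.341, adjusted p 0.0294), a call lost without mouse 496 (adjusted p 0.169) or 502 (0.166) and under 3 other scalings (0.0857 to 0.201).

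Rgs10 (chr7:128373621-128418758, minus strand), a short R12 protein that is best known from microglia, had 10.48, 9.70 and 10.17 in CA1 dendritic layers, against 7.79, 7.70 and 6.86 in CA1 cell bodies. In CA2 it had 10.79, 10.50 and 10.21 in dendritic layers, against 8.10, 7.72 and 9.92 in cell bodies, where mouse 502 lay above its fellows but below every dendritic library. From the transcript values, per kilobase, CA2 stood at 9.96 to 11.04 in dendritic layers and 7.95 to 8.76 in cell bodies, with no such high library. CA3 dendritic layers stood at 9.95 to 10.92, against 7.41 to 7.87 in CA3 cell bodies, and DG dendritic layers at 8.97 to 9.90, against 7.66 to 8.26 in DG cell bodies. Differences between layers were 2.67 ± 0.448 in CA1 (adjusted p 5.82e-05), 2.89 ± 0.448 in CA3 (adjusted p 2.78e-05), 1.92 ± 0.448 in CA2 (adjusted p 0.00191) and 1.53 ± 0.448 in DG (adjusted p 0.0148). The CA2 value was not called without mouse 492 (1.54, adjusted p 0.0621) or without mouse 496 (1.49, adjusted p 0.0676), nor the DG value without mouse 496 (1.17, adjusted p 0.189) or after scaling to totals (0.88, adjusted p 0.107). No comparison of 1 subregion with the others was called for Rgs10.

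Markers of other cells moved with both genes. The summed microglial marker level was 14.50 to 15.70 in dendritic and 11.26 to 11.95 in cell body layers. Rgs10 correlated with it at r = 0.86 over 24 libraries, but at -0.01 over the 12 dendritic and 0.24 over the 12 cell body libraries, so that the relation lay between the layers. The interneuron marker level was 14.03 to 16.23 in dendritic and 13.69 to 15.57 in cell body layers, and over the 12 dendritic libraries it correlated at r = 0.90 with Rgs12 and 0.85 with Rgs10. Over the 12 cell body libraries these values were 0.15 and 0.25. Summed CA3 markers correlated with Rgs12 at 0.88 over the dendritic and 0.70 over the cell body libraries, and with Rgs10 at 0.72 and 0.35. The part of these cells was not tested, and the libraries share mice and layers.

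**Figure D4:**
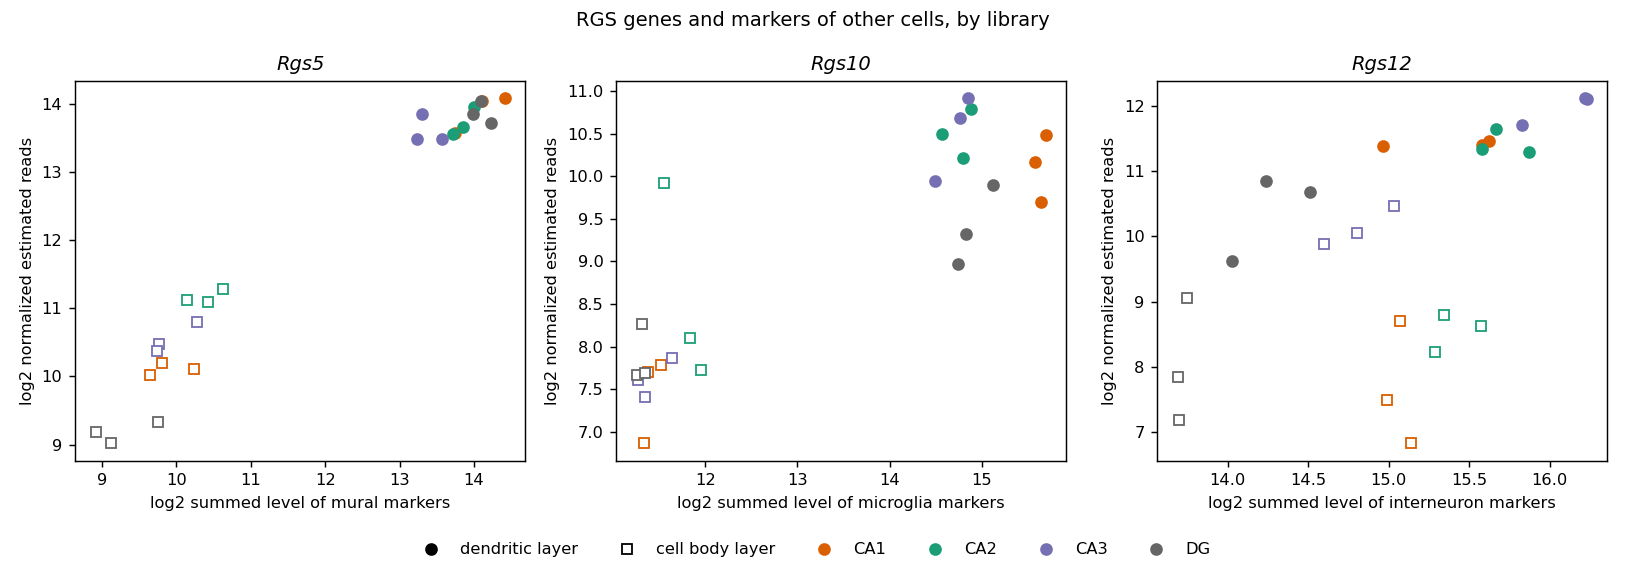
Level of Rgs5, Rgs10 and Rgs12 in each of 24 libraries (y axis, log2 normalized reads) against the summed level of mural, microglial and interneuron markers (x axis, log2). Colours mark the subregion, filled circles the dendritic libraries and open squares the cell body libraries. Rgs5 runs along with mural markers within each layer, and Rgs10 and microglial markers separate the layers but show no slope within them.

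Among R4 genes, Rgs5 (chr1:169655501-169695813, plus strand) had the largest difference between layers of the 10 genes. RGS5 is a marker of pericytes in brain vessels. It had 14.09, 14.04 and 13.57 in CA1 dendritic layers, against 10.11, 10.19 and 10.03 in CA1 cell bodies, and 13.85, 14.04 and 13.73 in DG dendritic layers, against 9.33, 9.19 and 9.02 in DG cell bodies. Dendritic layers of CA2 stood at 13.56 to 13.95, against 11.09 to 11.29 in CA2 cell bodies, and those of CA3 at 13.49 to 13.85, against 10.37 to 10.80 in CA3 cell bodies. The layers never overlapped, and no neighbours in the order of the dendritic levels were called different as deposited. That depends on the scaling: CA1 against DG dendritic layers, at 0.03 as deposited, was -0.62 to -0.72 under 3 other scalings, each called (adjusted p 0.0123 to 0.0228). Dendritic over cell body layers was 4.70 ± 0.171 in DG (25.9-fold, adjusted p 5.79e-16), 3.79 ± 0.171 in CA1 (adjusted p 3.41e-14), 3.06 ± 0.171 in CA3 (adjusted p 4.49e-12) and 2.56 ± 0.171 in CA2 (adjusted p 8.09e-11). Per kilobase, Rgs5 ranked first of the 10 genes in all 4 dendritic layers, at 11.46 to 11.83 on the log2 scale.

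In cell bodies the Rgs5 level differed between subregions. CA2 cell bodies exceeded the others by 1.22 ± 0.140 (adjusted p 1.17e-06) and DG cell bodies lay below the others (-1.43 ± 0.140, adjusted p 2.79e-08), while CA2 exceeded CA3 by 0.61 (adjusted p 0.0433) and CA1 exceeded DG by 0.93 (adjusted p 0.000392). The CA2 over CA3 step was not called without any 1 of the mice (adjusted p 0.0778 to 0.495), under 3 other scalings (0.092 to 0.181) or with no replicate block (0.0878), and the CA1 over DG step was 0.51 to 0.52 (0.056 to 0.0814) after either scaling to totals. After scaling to totals CA2 over the others was 0.81 and DG against the others -0.82, both called. Tested between layers, the CA2 difference was more negative in dendritic layers (-1.29 ± 0.198, adjusted p 0.000163) and the DG difference more positive (1.56 ± 0.198, adjusted p 9.16e-06). Under 3 other scalings the CA2 value was -0.64 to -0.77 with adjusted p of 0.05005 to 0.0712. The summed level of 10 mural markers, without Rgs5, was 13.23 to 14.42 in dendritic and 8.91 to 10.63 in cell body layers, with up to 2 of them at 0 in a cell body library. Rgs5 correlated with it at r = 0.98 over 24 libraries, 0.67 over the dendritic and 0.87 over the cell body libraries. Mural markers did not stand alone in this. Over the dendritic libraries r was 0.83 with endothelial and 0.77 with astrocyte markers, but -0.30 with oligodendrocyte markers. Over the cell body libraries it was 0.89 with oligodendrocyte precursor and 0.89 with interneuron markers, but -0.13 with astrocyte markers. In CA2 cell bodies 2 of 10 mural, 8 of 9 oligodendrocyte and 7 of 10 interneuron markers were higher than in the other cell body layers, against 7.34% of all genes. The part of these cells in the CA2 values was not tested.

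Rgs4 (chr1:169741477-169747642, minus strand), a neuronal R4 protein that acts on Gi/o and Gq, did not follow its neighbour Rgs5. It had 12.97, 12.92 and 13.23 in CA2 cell bodies, against 11.63, 11.74 and 11.87 in CA1, 11.47, 11.25 and 11.21 in CA3 and 10.58, 10.42 and 10.52 in DG cell bodies. All CA2 libraries lay above all the others, and CA2 exceeded their mean by 1.85 ± 0.30 (3.61-fold, adjusted p 0.000129), with CA2 over CA1 at 1.29 (adjusted p 0.0303). In CA2 dendritic layers it had 11.49, 11.24 and 10.68, so that they were lower than CA2 cell bodies (-1.90 ± 0.368, adjusted p 0.00029). The CA2 difference was thus 2.01 ± 0.425 smaller in dendritic layers (-2.01, adjusted p 0.00378), with an adjusted p of 0.0503 without mouse 492 and 0.0845 without mouse 496. CA1 dendritic layers varied most, at 12.55, 13.12 and 10.53, and exceeded the other dendritic layers by 1.08 ± 0.30 (adjusted p 0.0181); when mice 492 and 496 were left out of the CA1 dendritic layer this was -0.35, and the call was lost without mouse 492 (0.83, adjusted p 0.24) or 496 (0.73, adjusted p 0.223) and under 3 other scalings (0.50 to 0.62, adjusted p 0.121 to 0.214). Across 24 libraries Rgs4 and Rgs5 correlated at 0.00.

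Rgs2 (chr1:143999338-144004161, minus strand), an activity-induced protein that prefers Gq, was the gene whose layers overlapped in every subregion. It had 11.11, 10.82 and 10.02 in CA1 dendritic layers, against 9.61, 9.68 and 9.61 in CA2, 9.52, 10.44 and 9.44 in CA3 and 9.08, 10.43 and 9.33 in DG. Its CA1 cell bodies had 10.82, 10.96 and 10.51, against 9.26 to 10.09 over the 9 libraries of the other cell body layers. CA1 was higher in both layers, by 0.97 ± 0.238 in dendritic layers (adjusted p 0.00838) and by 1.07 ± 0.238 in cell bodies (adjusted p 0.00458). The dendritic value was 0.60 (adjusted p 0.218) without mouse 492 and 0.38 to 0.58 (0.0789 to 0.245) under 3 other scalings. The cell body value was 0.97 to 1.17 without any 1 mouse, with adjusted p of 0.054 to 0.0667. The difference between dendritic and cell body layers was -0.03 (adjusted p 0.875).

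Rgs8 (chr1:153653025-153700323, plus strand), an R4 protein of neurons that acts on Gi/o, was highest in CA3. It had 13.19, 13.23 and 12.75 in CA3 dendritic layers, against 12.69, 11.90 and 11.81 in CA1, 11.77, 12.22 and 12.26 in CA2 and 11.15, 11.38 and 10.85 in DG. In CA3 cell bodies it had 13.08, 12.90 and 12.94, against 11.13 to 11.73 in the other cell body layers. The CA3 libraries thus lay above all others of their layer, by 1.28 ± 0.179 on average in dendritic layers (adjusted p 0.000131) and 1.55 ± 0.179 in cell bodies (adjusted p 1.16e-06). DG was lower in dendritic layers (-1.30, adjusted p 2.72e-05) and in cell bodies (-0.67, adjusted p 0.00869), and CA2 was lower in cell bodies (-0.69, adjusted p 0.0142). Both cell body calls were lost without any 1 mouse (adjusted p 0.055 to 0.132), and the DG cell body value was -0.06 to -0.19 under 3 other scalings. The DG dendritic call was lost without the 4 columns of remade libraries (-1.08, adjusted p 0.0959). Dendritic over cell body layers was called in CA2 at 0.79 ± 0.220 (adjusted p 0.00822, or 0.0938 without mouse 496) and over the 4 subregions at 0.29 ± 0.110 (adjusted p 0.0345), but scaling to totals turned the 4-subregion value to -0.21 (adjusted p 0.0755), and its adjusted p was 0.167 without mouse 492 and 0.203 without mouse 496. From the transcript values, per kilobase, mean Rgs8 levels in dendritic and cell body layers were 9.22 and 9.15 in CA1 and 9.22 and 8.77 in CA2. They were 10.24 and 10.25 in CA3 and 8.20 and 8.88 in DG, so that dendritic layers were not higher throughout. Over the 12 dendritic libraries Rgs8 correlated at r = 0.95 with the summed CA3 markers and at 0.90 with the summed interneuron markers, whose part was not tested.

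Rgs16 (chr1:153740349-153745468, plus strand), an inducible R4 protein that acts on Gi/o and Gq, was the lowest of the 10 per kilobase in all 8 groups, at 4.65 to 7.13 on the log2 scale. It had 10.12, 8.43 and 6.77 in CA1 dendritic layers, against 4.91, 7.29 and 6.19 in CA1 cell bodies, and 7.58, 9.30 and 7.11 in DG dendritic layers, against 5.67, 5.42 and 5.78 in DG cell bodies. The spread within CA1 overlapped between layers and that within DG did not. Over the 4 subregions dendritic layers were higher by 1.96 ± 0.403 (3.89-fold, adjusted p 0.000277). The single-subregion values of 2.31 in CA1 (adjusted p 0.0373) and 2.37 in DG (adjusted p 0.0353) were close to the threshold, and that in CA1 was 0.86 without mouse 492 and lost its call without mouse 496 (adjusted p 0.0632). The DG call was lost without mouse 496 (1.62, adjusted p 0.355) or 502 (2.89, adjusted p 0.0726), and both were lost after quantile normalization or scaling to totals. Across 24 libraries Rgs16 correlated with its neighbour Rgs8 at 0.27.

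Rgs7 (chr1:175059087-175492500, minus strand), the R7 protein that turns off Go signalling downstream of receptors such as GABA-B, was lower in dendritic layers and did not overlap between layers in any subregion. It had 10.29, 10.43 and 10.29 in CA2 dendritic layers, against 11.93, 12.07 and 12.06 in CA2 cell bodies. In CA3 dendritic layers it had 10.87, 11.66 and 10.59, against 12.88, 12.49 and 12.23 in CA3 cell bodies. The difference was -1.68 ± 0.30 in CA2 (adjusted p 0.000117), -1.50 ± 0.30 in CA3 (adjusted p 0.00055) and -1.37 ± 0.30 in DG (adjusted p 0.00124), and in CA1 it was -0.80 (adjusted p 0.054). Without the 4 columns of remade libraries the DG value was -1.10 (adjusted p 0.141). CA1 dendritic layers stood at 11.88, 11.93 and 10.09, with mouse 502 below its fellows, as for Rgs4. For Rgs7 that library lay within the 10.06 to 11.66 of the other dendritic layers. Normalized values of the CA1 dendritic libraries of mice 492 and 496 summed to 98715227 and 82260662, with 15947 and 16656 genes reaching 10. For mouse 502 they summed to 57424959, with 18893 genes. Whether this bears on the CA1 values was not tested. Per kilobase Rgs7 ranked first of the 10 genes in CA1, CA3 and DG cell bodies, at 10.96 to 11.48 on the log2 scale.

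Genes of the proteins that hold R7 complexes together were listed as well. Of 5 partner genes 3 were called lower and 1 higher in dendritic layers, against 25.4% and 19.8% of all genes (median -0.84, against -0.20 over all genes). Gpr158, an orphan receptor that anchors RGS7, was lower (-1.42 ± 0.107, adjusted p 4.68e-11), as were Gnb5, the G beta 5 subunit (-1.29 ± 0.215, adjusted p 2.27e-05), and Rgs7bp, a membrane anchor (-0.84 ± 0.0872, adjusted p 1.53e-08). Gpr179, a related retinal receptor, was higher over the 4 subregions (2.45 ± 0.958, adjusted p 0.0401) and was called in none of them singly (adjusted p 0.213 to 0.873). Gpr158 was also higher in CA2 than in the other cell body layers (1.13 ± 0.175, adjusted p 6.79e-05).

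Rgs17 (chr10:5825663-5922400, minus strand), an RZ protein that acts on Gz and Gi/o, was lower in the dendritic layer of DG and was not called between layers in the other subregions. It had 10.54, 11.32 and 10.10 in DG dendritic layers, against 12.20, 12.10 and 12.29 in DG cell bodies. In CA1 dendritic layers it had 12.19, 12.58 and 11.80, against 11.75, 11.34 and 11.49 in CA1 cell bodies. Neither pair overlapped: the DG dendritic layer was lower by 2.91-fold (-1.54 ± 0.247, adjusted p 3.49e-05), and the CA1 difference of 0.66 had an adjusted p of 0.0528. Among dendritic layers CA1 (0.79, adjusted p 0.0104) and CA3 (0.79, adjusted p 0.0361) were higher than the others and DG was lower (-1.25 ± 0.202, adjusted p 0.000186), while in cell bodies DG was higher (0.60, adjusted p 0.0388). The CA1 call was lost without mouse 492 (0.83, adjusted p 0.0841) and under 3 other scalings (0.21 to 0.31, adjusted p 0.206 to 0.443), and those of CA3 dendritic layers (adjusted p 0.0688 to 0.25) and DG cell bodies (0.0527 to 0.202) without any 1 mouse. Under the other scalings the DG cell body value was 1.09 to 1.21. The DG difference was 1.86 ± 0.285 more negative in dendritic than in cell body layers (-1.86, adjusted p 0.000124), and the CA1 difference more positive (1.08 ± 0.285, adjusted p 0.0217); both tests were added after the values were seen. Without the 4 columns of remade libraries the DG layers differed by -0.92 (adjusted p 0.0564), the DG dendritic value was -0.52 and the DG difference between layers -1.12 (adjusted p 0.0683). The CA1 test was called neither when any 1 mouse was left out (adjusted p 0.0908 to 0.128) nor under 3 other scalings (0.111 to 0.299).

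Counts for the other subregions read as follows against their backgrounds. In dendritic layers 4 of 10 genes were called in CA1 against the others, all higher (13.2% of all genes called, 10.8% higher), 3 in CA3 (2.16%) and 4 in DG, all lower (6.96% called, 5.6% lower). In cell body layers 2 of 10 were called in CA1 (5.98%), 3 in CA3 (7.04%) and 5 in DG (17.2%). The tests of a subregion difference between layers called 1 of 10 in CA1 (6.37% of all genes), 1 in CA3 (1.73%) and 2 in DG (4.29%). Without mouse 492 the CA1 dendritic count was 0, and the DG dendritic count was 2 without mouse 502 and 0 without the 4 columns of remade libraries. In CA1 cell bodies the count was 0 without mouse 492 or 496. The CA1 dendritic count also depends on the scaling: it was 0 after quantile normalization and 1 after either scaling to totals, and the share of higher calls over all genes was 81.4% as deposited, against 44.4%, 22.0% and 25.2%. For DG the shares of higher calls were 19.5% in dendritic layers as deposited, against 42.9%, 62.2% and 49.4%, and 20.3% in cell bodies as deposited, against 46.8%, 67.8% and 65.7%.

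Of 11 other RGS genes listed, 9 were tested, and 4 were higher and 3 lower in dendritic layers, against 19.8% and 25.4% of all genes (median 0.73, against -0.20 over all genes). Rgs20, an RZ gene, was higher by 3.11 ± 0.185 (adjusted p 5.36e-13), and so were Rgs6, an R7 gene, by 2.58 ± 0.158 and Rgs3, an R4 gene, by 2.51 ± 0.232. Rgs17, likewise an RZ gene, was at -0.15 (adjusted p 0.345) over the 4 subregions. Rgs6 and Rgs7, both R7 genes, were called in opposite directions. In CA2 cell bodies Rgs13, an R4 gene, was higher than in the others (4.05 ± 1.06, adjusted p 0.0137).

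The receptors and G proteins upstream of RGS proteins were described from lists of names. Over all genes 19.8% were higher and 25.4% lower in dendritic layers (median -0.20), 7.34% higher and 1.63% lower in CA2 cell bodies (median 0.10), and 2.57% were called in CA2 dendritic layers. Of 9 G alpha genes 3 were higher and 3 lower in dendritic layers (median 0.29): Gnai2 (1.69 ± 0.0838) and Gna15 (4.24 ± 0.662) were among the higher and Gnaq (-0.89 ± 0.0855) and Gnai1 among the lower. In CA2 cell bodies 2 of 9 were higher than in the other subregions, with Gnao1, the Go alpha gene, at 0.88 ± 0.183 (adjusted p 0.00205). Of 23 Gi/o-coupled receptors 8 were higher and 10 lower in dendritic layers (median -0.18), with Grm3 at 3.04 and the cannabinoid receptor gene Cnr1 at 1.47, and with Npy2r at -3.74. Cnr1 was higher in CA2 both in dendritic layers (1.14) and in cell bodies (1.26), and in all 1 of 23 was higher and 4 lower in CA2 dendritic layers, and 5 higher and 2 lower in CA2 cell bodies. Of 13 Gq-coupled receptors 2 were higher and 8 lower in dendritic layers (median -1.35), with Grm5 at -1.75 and Chrm1 at -1.90. In CA2 cell bodies 5 of 13 Gq-coupled receptors were higher and 0 lower (median 1.22; scaling to totals moved the median of all genes there to -0.29, and the list was not recounted), led by the vasopressin receptor Avpr1b (8.01, adjusted p 1.02e-05) and the oxytocin receptor Oxtr (3.56, adjusted p 0.00179). In CA2 dendritic layers 2 of 13 were lower and 0 higher.

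Other proteins that act on the same G proteins were counted against those shares of all genes. Of 7 GoLoco and G alpha cycle genes 1 was higher and 4 lower in dendritic layers (median -0.37), and Rap1gap, a GTPase-activating protein for Rap, was lower (-0.90 ± 0.112, adjusted p 3.01e-07) and was higher in CA2 than in the other cell body layers (1.07 ± 0.183, adjusted p 0.00022). Of 16 receptor kinase and other RGS-domain genes 14 were tested, and 6 were higher and 2 lower in dendritic layers (median 0.15), a share called near the 45.2% of all genes, with Grk3 at 1.46, Grk2 at 1.34 and Grk5 at 1.29. In CA2, 4 of these 14 were higher and 1 lower in cell bodies, with Grk3 at 1.15, and 1 was lower in dendritic layers, namely Grk2 at -0.67.

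The transcript table, log2 of estimated reads per transcript, held 25 transcripts of the 10 genes, and 6 genes had at least 2. Unequal change of transcripts between dendritic and cell body layers over the 4 subregions was called for 1 of these 6, Rgs14 (Simes test in limma's diffSplice, adjusted p 0.0132), against 20.4% of 10409 genes. The coding transcript ENSMUST00000063771.13 fell by 2.37 on the log2 scale relative to a retained-intron transcript, ENSMUST00000135851.1 (-2.37), in dendritic layers. The coding transcript held 99.6% of Rgs14 reads per kilobase of transcript in CA2 dendritic layers, against 99.9% in CA2 cell bodies. This share was 95.4%, 83.7% and 90.4% in the dendritic layers of CA1, CA3 and DG. The call was lost without mouse 492 or 496 and in a test of the ratio of both transcripts (adjusted p 0.0573).

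Rgs12 had 7 transcripts in the table, each with its own start, and 3 of them were chosen for description after their values were seen. The longest, ENSMUST00000030984.13, of 5472 bases, starts at 34949445 on chromosome 5 (GENCODE M21, GRCm38), inside the first promoter window printed above, as does the shorter ENSMUST00000128161.7. ENSMUST00000114284.7, of 3624 bases, starts at 34989384, and ENSMUST00000114281.7, of 3439 bases, starts at 34999057 in the second window. The longest transcript had mean log2 levels of 8.90, 9.13, 10.06 and 9.40 in the dendritic layers of CA1, CA2, CA3 and DG, against 5.26, 5.64, 6.46 and 6.2 in their cell bodies. All 12 dendritic libraries (8.65 to 10.52) lay above all 12 cell body libraries (3.74 to 7.20). Its difference was 3.48 ± 0.346 (adjusted p 7.77e-08) over the 4 subregions and 3.64, 3.49, 3.60 and 3.21 in CA1, CA2, CA3 and DG, each called. ENSMUST00000114281.7 differed by 2.03 ± 0.577 (adjusted p 0.00886) and ENSMUST00000114284.7 by 1.55 ± 0.743 (adjusted p 0.107), and both varied widely between mice, for example 3.30 to 9.09 in DG dendritic layers for ENSMUST00000114281.7. The other 4 differed by 1.54 to 2.52, with ENSMUST00000128161.7 at 2.52 (adjusted p 0.000826) and ENSMUST00000087684.10 at 2.16 (adjusted p 0.00241) called. Unequal change among all 7 was not called (Simes adjusted p 0.445).

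**Figure D5:**
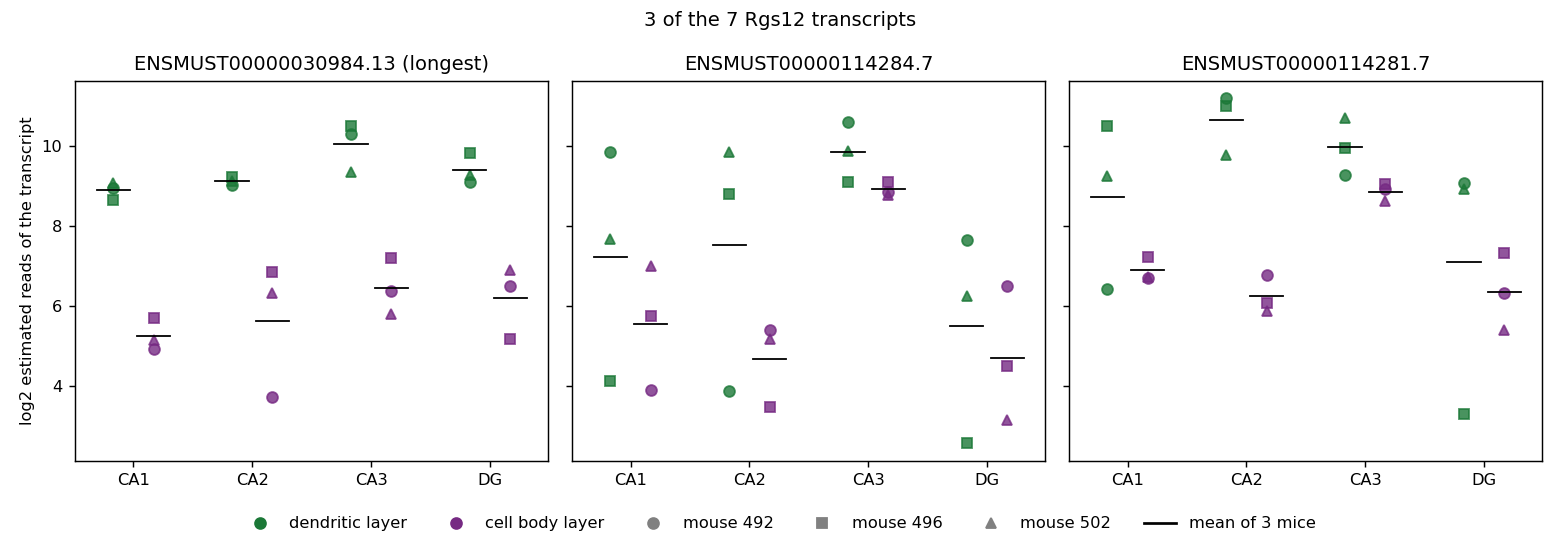
Levels of 3 of the 7 Rgs12 transcripts in 24 libraries (y axis, log2 estimated reads of the transcript), for dendritic (green, left) and cell body layers (purple, right) of 4 subregions; each symbol is 1 mouse and the bar is the mean of 3. The longest transcript stands at 8.65 to 10.52 in dendritic and 3.74 to 7.20 in cell body libraries, and both shorter ones scatter across mice.

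Some counts could include reads of neighbours. Antisense genes overlap Rgs8 (Gm29529), Rgs12 (Gm43791) and Rgs16 (Gm28513), and since no source used here gives the strand setting of the counting, reads from a gene and its antisense partner cannot be told apart. On the same strand 5730408A14Rik overlaps Rgs7, Gm15503 overlaps Rgs10 and Mir3097 overlaps Rgs12.

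The genes most like each RGS gene across the 24 libraries were ranked by Pearson correlation among 13173 candidate genes, as a description of libraries that share mice, layers and subregions. For Rgs14 these were Arhgef28 (0.898), Wipf3 (0.892) and Ptpn5 (0.871). For Rgs5 they were Epas1 and Flt1 (both 0.994) and Acsbg1 (0.993), and for Rgs10 Slco2b1 (0.949). Rgs12 was most like Traf3 (0.945), Rgs7 most like Rab2a (0.955) and Rgs8 most like Cacng2 (0.907). The highest values were 0.897 for Rgs2 (Adgrl3), 0.883 for Rgs4 (Tmem184c), 0.879 for Rgs16 (Pim3) and 0.752 for Rgs17 (Usp29). Among the 10 genes themselves Rgs5 correlated with Rgs10 at 0.87 and with Rgs12 at 0.84, and Rgs14 correlated with Rgs4 at 0.74.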

How the data were processed

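Laser-captured layers of 3 mice gave 28 libraries, of which 24 have a column in the deposited tables; the other 4 are remade CA2 and DG dendritic libraries, and no source used here says whether the columns of those names hold the first or the remade library; 12 further per-sample columns were not used. Per the submitters' processing notes, tools included cutadapt, STAR 2.5.1b, Salmon 0.9.1, featureCounts 1.5.1, limma 3.32.2 and DESeq2 1.18.1 on mm10. The authors deposited log2 values (Salmon read estimates per gene, median normalized, and estimated reads per transcript, for which no normalization is named). As raw depth is not kept in these files, no counting interval is given.

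The log2 values were fitted with limma 3.58.1 (statmod 1.5.0) in R 4.3.3, with 8 groups, the mouse as a block, an intensity trend and robust variances (14 residual degrees of freedom). Genes needed a linear value of at least 10 in at least 3 libraries. P-values were adjusted by Benjamini-Hochberg in each of 29 comparisons. The pairing comes from the labels, which give the same animals in all groups; deviations from group means correlated at 0.017 on average over 84 pairs of libraries of the same mouse and -0.008 over 168 pairs of other mice. A percent of values, such as the mitochondrial share, was computed from the deposited log2 values after taking them off the log scale. Transcripts were compared with diffSplice, and the fits were tested on simulated data. Alternatives were other scalings and filters, no block, each mouse left out, and libraries left out. The 10 genes were given by name; within lists, genes with the smallest adjusted p were named, and some list members are not reported here. Genes and lists were chosen with earlier results of these data known. Positions are from GENCODE M21 and promoter sequences from RefSeq on GRCm38.p6. Motifs were searched on both strands.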

Additional observations from a re-analysis of the deposited data

Results flagged for a closer look

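The difference of 1 subregion from the others, tested between dendritic and cell body layers, was called for 7 combinations of RGS gene and subregion. For CA2 it was -2.37 for Rgs14, -2.01 for Rgs4 and -1.29 for Rgs5, each more negative in dendritic layers. For CA1 it was 1.08 for Rgs17, and for CA3 it was 1.37 for Rgs14. For DG it was 1.56 for Rgs5 and -1.86 for Rgs17. Groups held 3 libraries, too few to look for single libraries far from the rest.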

How the results depend on the processing

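The reported fit pairs libraries by mouse; with no replicate block, 6 of 290 values of the RGS genes lost their call, 0 reversed, and 7 of 10 genes were again called between layers. Without 1 mouse at a time, counts of called RGS genes were 0 to 5 (as reported 4) for CA1, 1 to 2 (1) for CA2 and 2 to 4 (4) for DG dendritic layers, 0 to 1 (2) for CA1 and 3 to 4 (5) for DG cell bodies, and 0 to 1 (1) for unequal change of transcripts, for which the ratio test gave 0. Between layers over the 4 subregions the count was 6 to 7 (7), and for the CA2 difference between layers 2 to 3 (3). The CA1 dendritic count was 0 after quantile normalization, 1 after either scaling to totals, 1 without the 4 columns of remade libraries, 0 when mice 492 and 496 were left out of that layer and 0 when only the groups compared were fitted. That last fit also gave 3 within CA1 (as reported 5) and 6 for CA3 cell bodies (3), and no filter on low values gave 1 for CA1 cell bodies (2). Without the 4 columns of remade libraries the counts were 0 for CA2 and 0 for DG dendritic layers and 3 within DG (7), and Rgs14 in CA2 dendritic layers was at 1.37, a fit in which the 1 CA2 library left is assumed to vary like the others.

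Directions reversed in few places. Leaving mice 492 and 496 out of CA1 dendritic layers turned Rgs4 to -1.12 within CA1, -0.35 for CA1 against the other dendritic layers and -0.25 against DG, and Rgs7 to 0.069 for CA2 against CA1 dendritic layers. Rgs5 in CA1 against DG dendritic layers was -0.67 after quantile normalization, -0.72 after scaling to totals and -0.62 after scaling to totals outside the mitochondrial genome. Under scaling to totals Rgs8 was -0.21 between layers over the 4 subregions, -0.51 within CA1 and -0.54 for CA1 against the other dendritic layers, and -0.51 for the last of these outside the mitochondrial genome. The cause was not tested for any of these.

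Rgs5, Rgs12, Rgs10, Rgs16, Rgs7 and Rgs14 kept their call between layers over the 4 subregions under every alternative run. Groups of 3 libraries per group and a mouse that is also a lane limit the precision, and raw depth is not kept in the files.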
